A study of Mus musculus with 15 samples.

Results

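Genes of iron regulation and of the metallothioneins were followed in the liver of 15 female C57BL/6 mice, chosen by symbol as Hamp, Hamp2, Bmp6, Tfrc, Tfr2, Trf, Slc40a1, Fth1, Mt1 and Mt2, which are 10 of the 55450 genes in the count table. Hepatic gene expression had been measured by polyA mRNA-seq with 1 library per mouse and 5 mice per group. The Adult group, 6 months of age at the start, comprised A1 to A5, and the Old group, 22 months of age, comprised O1 to O5, and both received corn oil by daily gavage. The PDX group (P1 to P5) had the age of the Old group and received protectin DX, a lipid mediator made from docosahexaenoic acid, at 30 ng per g of body weight in the same oil. The sample protocol gives 9 weeks of gavage and the design text gives 8. All the mice came from an aging colony and ate the same chow. There was no 6-month-old group on PDX, so treatment and age cannot be told apart in the comparison of PDX with Adult. Nothing in the labels tells which mice were killed on the same day.

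The liver senses and sets the iron level of the body. Hepatocytes secrete hepcidin, the hormone that closes the iron exporter ferroportin, and BMP6 made by liver endothelial cells turns on its gene through SMAD proteins when iron is plentiful. Inflammation turns the same gene on through IL-6 and STAT3. Inside cells, iron regulatory proteins bind RNA stem-loops when iron is scarce, which blocks translation of the ferritin and ferroportin messages and protects the message of transferrin receptor 1 from decay. Metallothioneins are small cysteine-rich proteins that hold zinc and copper, and their genes respond to metals, glucocorticoids and inflammation.

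Hamp and Hamp2 lie close to each other on chromosome 7 of GRCm38, Hamp at chr7:30942368-30944032 and Hamp2 at chr7:30922372-30924681, both on the minus strand. Hamp encodes hepcidin, and Hamp2 is its mouse paralog, whose peptide is not known to act on iron in the same way. Their promoters are shown because the levels of these neighbours parted in the older mice. Each run holds the 140 bases before the RefSeq start (table build GRCm38.p6), and the capitals mark matches to GGCGCC, the core of a BMP response element, and to TTCNNNGAA, a STAT site.
Hamp promoter, chr7:30944030-30944169, minus strand: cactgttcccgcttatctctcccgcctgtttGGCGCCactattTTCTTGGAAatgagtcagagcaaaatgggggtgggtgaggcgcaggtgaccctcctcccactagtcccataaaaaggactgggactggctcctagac
Hamp2 promoter, chr7:30924182-30924321, minus strand: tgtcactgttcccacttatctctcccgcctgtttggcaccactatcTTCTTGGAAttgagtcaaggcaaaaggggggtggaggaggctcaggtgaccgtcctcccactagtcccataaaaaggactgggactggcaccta
Around the STAT site 109 of 120 aligned bases were identical (90.8%). The GGCGCC letters stood from base -109 to base -104 in Hamp, counted from the start. The Hamp2 stretch at the same place differed from them by G4A, counted from 1 at the 5′ end of the motif with the Hamp base first. The STAT letters were present in both promoters, as was TGAGTCA, an AP-1 site. Searched on both strands in the 250 bases before the start, GGCGCC was found in 9.59% of 32851 mouse promoters, TTCNNNGAA in 7.02% and TGAGTCA in 4.46%. A match is a run of letters and was not tested as a binding site.

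The transcripts of Fth1, Slc40a1 and Tfrc carry the stem-loops that iron regulatory proteins bind. They are shown because these members are steered by iron after transcription, which counts of messages see only for Tfrc, through its decay. A search of GENCODE M21 transcripts used a C, 5 bases, the loop CAGTGN and 5 bases that pair with the first 5 (G with T allowed). A match in an untranslated region was found in 175 of 22527 genes with a coding transcript (0.777%). Fth1 and Slc40a1 had 1 match each in the 5′ UTR and Tfrc had 4 in the 3′ UTR. Ftl1, the ferritin light chain, is added for comparison. The coordinates cover the 17 matched bases, and the loop is in capitals.
Fth1, chr19:9982738-9982754, plus strand: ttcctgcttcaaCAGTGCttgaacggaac
Ftl1, chr7:45459785-45459801, minus strand: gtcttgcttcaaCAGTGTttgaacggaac
Slc40a1, chr1:45925471-45925487, minus strand: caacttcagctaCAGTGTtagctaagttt
Tfrc, chr16:32631225-32631241, plus strand: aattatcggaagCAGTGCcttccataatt
Tfrc, chr16:32631604-32631620, plus strand: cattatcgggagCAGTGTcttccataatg
Tfrc, chr16:32631669-32631685, plus strand: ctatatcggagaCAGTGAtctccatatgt
Tfrc, chr16:32631716-32631732, plus strand: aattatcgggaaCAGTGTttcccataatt

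Mt1 and Mt2 are neighbours on the plus strand of chromosome 8, at chr8:94179082-94180327 and chr8:94172664-94173568. Their promoters are shown because the levels of both genes varied together in these mice. The capitals mark TGCGCNC and TGCACNC, 2 spellings of the metal response element that MTF1 binds, read on either strand.
Mt1 promoter, chr8:94178949-94179088, plus strand: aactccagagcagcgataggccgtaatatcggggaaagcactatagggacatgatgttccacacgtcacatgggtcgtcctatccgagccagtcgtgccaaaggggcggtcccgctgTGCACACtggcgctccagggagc
Mt2 promoter, chr8:94172478-94172617, plus strand: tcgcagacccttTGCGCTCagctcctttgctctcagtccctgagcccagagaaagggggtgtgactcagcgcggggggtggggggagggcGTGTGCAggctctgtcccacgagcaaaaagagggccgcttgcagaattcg
In the 250 bases before the RefSeq start, Mt1 had 1 such match and Mt2 had 3. TGCGCNC was found in 12.5% of promoters and TGCACNC in 10.4%. RefSeq and GENCODE place the starts of these genes at different bases. The GENCODE gene start lay inside the printed window for Mt1 and past its end for Mt2. Bases after the RefSeq start were not searched, so elements there are missed. The matches are therefore not a full count of the elements of either gene and do not rank the 2 genes.

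The other members lie apart. On GRCm38, Bmp6 is at chr13:38345107-38500302, Tfrc at chr16:32608920-32632794 and Tfr2 at chr5:137569840-137587481. Trf is at chr9:103204001-103230444, Slc40a1 at chr1:45908068-45926523 and Fth1 at chr19:9980598-9985098.

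Between 22424383 and 36070835 read pairs were counted per mouse, and all 10 members passed the filter on low counts. The Old mice O2 and O5 stood apart. O2 had the highest summed Kupffer cell marker level (3282 CPM against 320.5 to 1642 CPM over the other mice), and was also highest for erythroid (1174 CPM), proliferation (143 CPM), T and B cell (247 CPM) and neutrophil markers (235 CPM). O5 had the lowest summed hepatocyte marker level (49270 CPM, with O2 next at 76388 CPM and 109350 to 202920 CPM in the other mice) and the highest acute phase sum (131960 CPM). Albumin (Alb) made up most of that hepatocyte sum, at 34724 CPM in O5, whereas Cps1, a urea cycle enzyme, was at 3674.5 CPM in O5 and 893 CPM in O2, and Ass1, another, at 1119 and 253 CPM. Of the 7 markers, O5 was the lowest of the 15 mice for Alb, Ttr and Serpina1c, and O2 was below O5 for the other 4. O5 also carried the highest labelled frailty index (0.56). The neutrophil list had 7 of 7 tested markers called higher by edgeR in Old vs Adult and 2 in PDX vs Adult. T and B cell markers had 3 of 8 called higher in Old vs Adult. Over all genes 6.78% were called in Old vs Adult and 2.66% in PDX vs Adult. Elane, Mpo and Camp had 0 to 3 counts in Adult mice and passed the filter only through the older mice. The neutrophil sum was 235 CPM in O2 and 10.1 to 40.9 CPM in the other Old mice. These calls therefore only describe the samples. No defining marker of hepatocytes, Kupffer cells or sinusoidal endothelial cells was at 0. CPM, a gene's count scaled to a common library size, was computed after TMM scaling, a correction for RNA composition whose factor was 1.331 in O2 and 0.8845 to 1.080 in the others. In whole liver, fewer cells of a type and less RNA per cell cannot be told apart.

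Per transcript length (TPM), Trf was the most abundant member in the Adult group, at 15640 ± 1031 TPM (SD, n = 5). Hamp2 followed at 3700.4 ± 812 TPM and Hamp at 2563 ± 1162 TPM, which differed by less than the SD of Hamp. Fth1 stood at 976 ± 36.3 TPM. Mt2 (462 ± 281 TPM), Mt1 (350.1 ± 128 TPM) and Tfr2 (339 ± 12.7 TPM) lay within the spread of Mt2. The rest were far lower, with Slc40a1 at 48.8 ± 10.5 TPM, Tfrc at 9.17 ± 2.91 TPM and Bmp6 at 6.80 ± 1.52 TPM. In the Old group the order changed, as Hamp2 stood at 289 ± 478 TPM, below Tfr2 at 392 ± 103 TPM, and Mt2 and Mt1 were at 1543 ± 1839 and 1032 ± 1116 TPM.

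**Figure D1:**
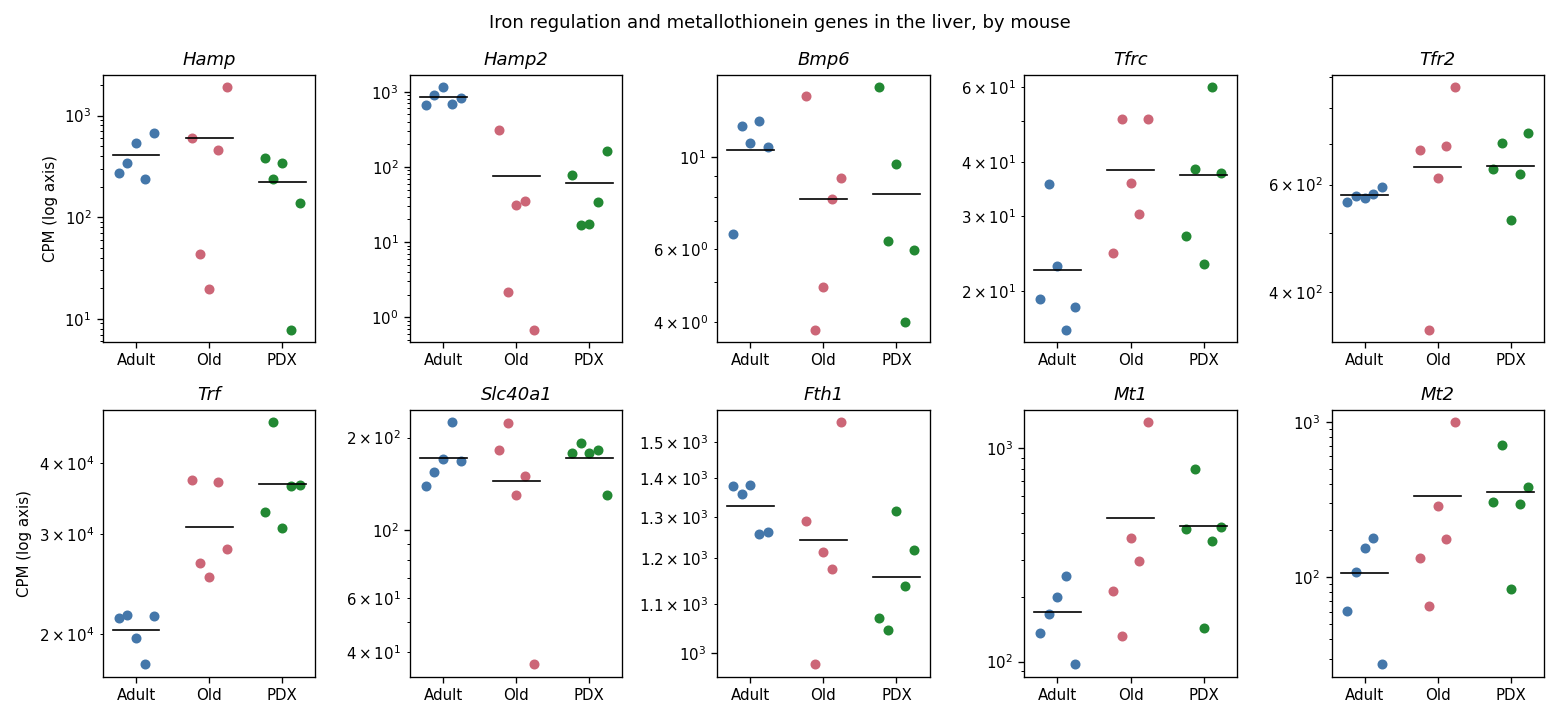
CPM of each member (log axis) in every mouse, with 1 point per mouse and a black line at the arithmetic mean of 5 mice. All 10 Old and PDX mice lie below the Adult mice for Hamp2 (highest 307 CPM, lowest Adult 667 CPM) and above them for Trf (lowest 25251 CPM, highest Adult 21606 CPM).

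Aging was addressed by Old against Adult. Hamp2 was lower in every Old mouse than in any Adult mouse, and Trf was higher in every Old mouse. Tfrc, Mt1 and Mt2 were higher on average, with overlap between the groups. None of the 10 members passed edgeR's quasi-likelihood test at an adjusted p of 0.05, while 6.78% of the 15808 genes tested did. An unadjusted p under 0.05 was found for 5 members, against 27.7% of genes. DESeq2's Wald test called 3 members, Trf, Hamp2 and Mt1, against 14.1% of genes. Groups that did not overlap were seen for 2 members, against 8.13% of genes.

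The treatment was addressed by PDX against Old. No member passed (lowest edgeR adjusted p = 0.793), and no gene in the table did (0.0%). An unadjusted p under 0.05 was found for 0 members and 5.28% of genes, a DESeq2 call for 0 members and 0.00344% of genes, and groups apart for 0 members and 0.342% of genes. PDX against Adult, a comparison that shares its groups with the others, again left 0 members called, against 2.66% of genes. There were 5 members with an unadjusted p under 0.05 (20.6% of genes), DESeq2 called 2, Trf and Hamp2 (7.68% of genes), and 2 did not overlap between groups (19.9% of genes).

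Without O2 and O5 the counts changed. Old against Adult then called 1 member, Trf, with 7.12% of genes called. PDX against Adult called 5, Tfrc, Mt1, Mt2, Trf and Hamp2, with 24.6% of genes called. Fitting only the PDX and Adult mice called 4 members, the same set less Tfrc, with 29.6% of genes called.

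**Figure D2:**
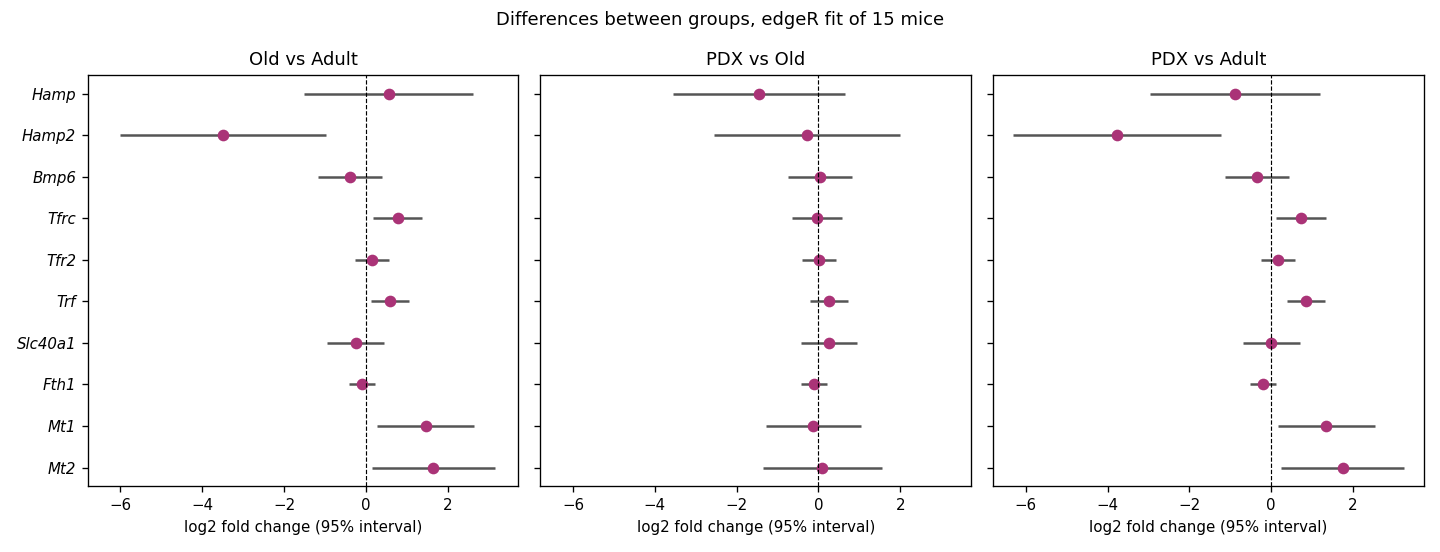
Log2 fold change of each member in 3 comparisons, with the 95% interval of the edgeR fit of all 15 mice and a dashed line at 0. In PDX vs Old every interval spans 0, and the widest intervals in all 3 panels belong to Hamp and Hamp2.

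Hamp2 had the largest log2 fold change of the members in Old vs Adult and in PDX vs Adult. Adult mice had 667, 900.2, 1158, 689 and 827 CPM. Old mice had 307, 2.17, 30.8, 35.4 and 0.685 CPM, and PDX mice had 77.2, 16.8, 17.5, 34.5 and 164 CPM. The older groups overlapped each other widely, and O1 held most of the Old level. Old vs Adult gave a log2 fold change of -3.50 ± 1.18 (SE; 95% interval -6.01 to -0.98), with an edgeR adjusted p of 0.0754 and a DESeq2 adjusted p of 0.0153. Without O1 it was -5.60 with an edgeR adjusted p of 0.0164. Against Adult, the PDX value was -3.78 ± 1.19 with an edgeR adjusted p of 0.100 and a DESeq2 adjusted p of 0.0113. For PDX vs Old it was -0.28 ± 1.07 (95% interval -2.56 to 2.00). The interval between the older groups was thus wide in both directions.

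Hamp itself did not follow its paralog. Its level was 270.5, 342, 539, 236 and 679.8 CPM in Adult mice. Old mice had 606, 43.7, 19.8, 457 and 1916 CPM, and PDX mice had 387, 239.9, 344, 7.82 and 137 CPM. O2, O3 and P4 lay far below the other 12 mice, and O5 was the highest of all. The Old mean was above the Adult mean (log2 fold change 0.56 ± 0.97, edgeR adjusted p = 0.745), but the sign turned without O5 (-0.55), without O2 and O5 (-0.19) and on the deposited log2 values (-0.81). PDX vs Old gave -1.45 ± 0.99 (edgeR adjusted p = 0.793), which was -0.34 without O5 and -0.69 without O2 and O5, and PDX vs Adult -0.89 ± 0.97 (edgeR adjusted p = 0.652).

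The split of the 2 genes can be read within each mouse. Hamp2 took 71.1, 72.5, 68.3, 74.5 and 54.9% of the Hamp plus Hamp2 counts in Adult mice. In Old mice it took 33.6, 4.72, 60.9, 7.19 and 0.0358%, and in PDX mice 16.6, 6.55, 4.84, 81.5 and 54.4%. O3, P4 and P5 thus kept a share near the Adult range while their total was low. The mean share was 68.2% in Adult and 21.3% in Old mice, a difference of -46.9 percentage points (exact two-sided permutation test p = 0.0159, adjusted over 9 ratio tests 0.0714; smallest possible p 0.00794). PDX vs Adult (exact permutation p = 0.0794) and PDX vs Old (exact permutation p = 0.540) did not pass. The summed level of both genes was 925 to 1697 CPM in Adult, 45.9 to 1917 CPM in Old and 42.3 to 464 CPM in PDX mice, so every PDX mouse lay below every Adult mouse. The sum was looked at after its values were seen and was not tested.

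**Figure D3:**
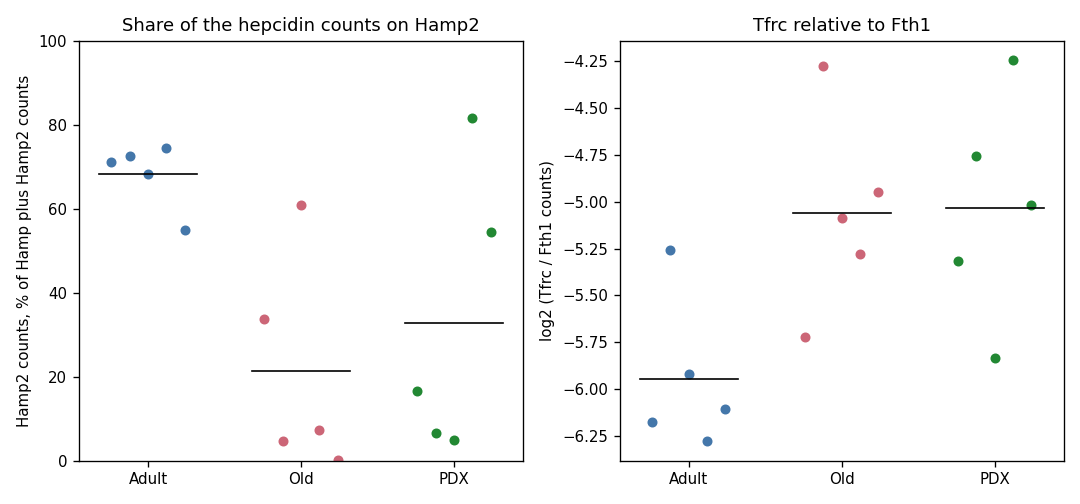
Left, Hamp2 counts as a percentage of Hamp plus Hamp2 counts in each mouse, with a line at the mean of 5 mice. Right, the log2 ratio of Tfrc to Fth1 counts, where the means were -5.95 in Adult, -5.06 in Old and -5.03 in PDX mice.

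Hamp and Hamp2 shared 60 runs of 50 bases, the read length, which is 16.6% of those in Hamp transcripts and 11.2% of those in Hamp2. Only uniquely aligned pairs were counted, so pairs from the shared stretch may be missing from both. These are shares of runs and not of read pairs. The share of pairs lost, and so the uncertainty of either level, was not measured.

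Bmp6, the ligand that raises hepcidin, was low in bulk liver. Adult mice had 6.52, 11.9, 10.8, 12.2 and 10.6 CPM, Old mice 14.1, 3.83, 4.86, 7.91 and 8.91 CPM, and PDX mice 14.8, 6.26, 9.62, 4.00 and 5.99 CPM. The groups overlapped, with O1 and P1 the highest. No difference passed, at a log2 fold change of -0.39 ± 0.37 in Old vs Adult (edgeR adjusted p = 0.515) and 0.04 ± 0.37 in PDX vs Old. O2, P4 and O3 had the lowest Bmp6 of the 15 mice and were also the lowest for Hamp.

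Over 15 mice the log2 levels of Hamp and Bmp6 had r = 0.77 (permutation p = 0.00057, adjusted over 6 pairs 0.00171) and Spearman rho = 0.65 (permutation p = 0.0105, adjusted 0.0314). These permutations ignored the groups. With the group means subtracted from each mouse, r was 0.76. Without O3 and P4, the mice farthest from the median of Hamp, r was 0.64. Without O2, O3 and P4, which form a low cluster of their own, r was 0.35 in the other 12 mice (permutation p = 0.271) and rho was 0.34 (permutation p = 0.290). The relation therefore rests on those 3 mice. Hamp and Hamp2 had r = 0.16 (rho = 0.23, permutation p = 0.581 and 0.403), and r was -0.050 with the group means subtracted.

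Tfr2, the hepatocyte sensor of transferrin-bound iron, was steady in the Adult group at 561, 575, 569.7, 579.8 and 595 CPM. It spread more in Old mice, at 683, 347, 614, 695 and 868 CPM, and stood at 636, 703, 525, 625 and 728 CPM in PDX mice. O2 was the lowest and O5 the highest of all. Old vs Adult gave a log2 fold change of 0.15 ± 0.20 (edgeR adjusted p = 0.642) and PDX vs Old gave 0.0049 ± 0.20 (95% interval -0.41 to 0.42).

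Tfrc, transferrin receptor 1, which takes iron into cells, had 19.1, 35.5, 22.8, 16.2 and 18.3 CPM in Adult mice. Old mice had 24.5, 50.6, 35.7, 30.2 and 50.5 CPM, and PDX mice 26.9, 38.7, 23.1, 60.1 and 37.7 CPM. All 10 older mice were above the Adult mean of 22.4 CPM, but A2 lay inside their range. Its log2 fold change was 0.78 ± 0.29 in Old vs Adult (edgeR adjusted p = 0.0963, unadjusted p = 0.0157) and 0.74 ± 0.29 in PDX vs Adult (edgeR adjusted p = 0.162). Without O2 and O5 the Old vs Adult value was 0.44 (edgeR adjusted p = 0.373). O2, high for Tfrc, was also the mouse with the highest erythroid, proliferation and neutrophil marker sums, and P4 had the highest erythroid sum of the PDX mice (490.3 CPM). O5, with as much Tfrc as O2, had the lowest erythroid sum of the 15 mice (103 CPM, against 1174 CPM in O2). Its proliferation sum was 7.29 CPM (143 CPM in O2). Neutrophil sums were 235 CPM in O2, 73.0 CPM in P2, 42.6 CPM in P4 and 40.9 CPM in O5. These mice had the most Tfrc, and the other mice had neutrophil sums of 27.1 CPM or less. The part of other cell types in the Tfrc level was not tested.

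Fth1, the ferritin heavy chain that stores iron, varied little. It stood at 1379.6, 1358, 1381, 1259 and 1262 CPM in Adult, 1291, 979, 1216, 1176 and 1561 CPM in Old, and 1070.2, 1046, 1315, 1138 and 1219.8 CPM in PDX mice. Old and Adult differed by a log2 fold change of -0.09 ± 0.15 (95% interval -0.41 to 0.22, edgeR adjusted p = 0.717) and PDX and Adult by -0.20 ± 0.15 (edgeR adjusted p = 0.480). Its light chain partner Ftl1 had 679 to 878 CPM in Adult mice, above the 548 to 659 CPM of Old and the 524 to 666 CPM of PDX mice. Such separation was seen for 8.13% of all genes in Old vs Adult and 19.9% in PDX vs Adult. Ftl1 did not pass edgeR's test (log2 fold change -0.36 ± 0.13, adjusted p = 0.0928 in Old vs Adult), and passed DESeq2's (adjusted p = 0.0132).

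The log2 ratio of Tfrc to Fth1 compares messages that iron regulatory proteins act on in opposite ways. Counts see this control only for Tfrc, and Fth1 varied little, so the ratio mostly follows Tfrc. The ratio was 0.89 higher in Old and 0.92 higher in PDX than in Adult mice. Each difference had an exact permutation p of 0.0238, and 0.0714 after adjustment over 9 tests. Without O2 and O5 the Old vs Adult difference was 0.58 (exact permutation p = 0.107). Between PDX and Old the ratio differed by 0.030 (exact permutation p = 0.960). Across mice, Tfrc and Fth1 had r = -0.30 (rho = -0.45, permutation p = 0.281 and 0.0974), which did not pass. With the group means subtracted, this r was -0.051.

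Slc40a1, the gene of ferroportin, the only known iron exporter of cells, had 139, 154, 171, 225 and 168 CPM in Adult mice. Old mice had 183, 224, 130.3, 149 and 36.5 CPM, and PDX mice 178, 192, 179, 182 and 129.9 CPM. O5 alone was far below the rest. The log2 fold change was -0.25 ± 0.32 in Old vs Adult (edgeR adjusted p = 0.656), 0.25 ± 0.32 in PDX vs Old and 0.0053 ± 0.32 in PDX vs Adult. Without O5 the first 2 were -0.0015 and 0.0056. O5 also had the lowest Kupffer (320.5 CPM) and sinusoidal endothelial (171 CPM) marker sums. It was the lowest of the 15 mice for every marker of these lists except Csf1r, Marco and Lyve1. Marco (91.3 CPM) was above its level in the other Old mice, and Lyve1 (31.2 CPM) was the highest of all. The part of these cells in the low Slc40a1 level of O5 was not tested. Tfrc and Slc40a1 had r = -0.33 (rho = -0.093, permutation p = 0.245 and 0.744), and r was -0.29 with the group means subtracted.

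Trf, transferrin, the plasma carrier of iron, was higher in both older groups. Adult mice had 21361, 21606, 19734, 17706 and 21508 CPM. Old mice had 37265, 26672, 25251, 37005 and 28292 CPM, and PDX mice 32852, 47268, 30693, 36518 and 36666 CPM. It took 1.78 to 2.13% of counted pairs in Adult, 2.63 to 3.54% in Old and 3.19 to 4.38% in PDX mice, with no older mouse inside the Adult range. The log2 fold change was 0.60 ± 0.22 in Old vs Adult (edgeR adjusted p = 0.0929, DESeq2 adjusted p = 0.00306) and 0.85 ± 0.22 in PDX vs Adult (edgeR adjusted p = 0.0513, DESeq2 adjusted p = 9.48e-06). PDX vs Old gave 0.25 ± 0.22 (95% interval -0.21 to 0.72, edgeR adjusted p = 0.807). Of the 50-base runs of Trf transcripts, 59.4% (2043 of 3441) also occur in other genes, 2012 of them in Gm20425, a GENCODE model that overlaps Trf and had no count row here.

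Mt1, a metallothionein of most tissues, had 136, 167, 201, 251 and 97.0 CPM in Adult mice. In Old mice it had 214, 132, 379, 296 and 1332 CPM, and in PDX mice 418, 801, 144, 369 and 428 CPM. Above the Adult mean of 170.4 CPM were 4 of 5 Old and 4 of 5 PDX mice, and O2 and P3 were not. The log2 fold change was 1.47 ± 0.56 in Old vs Adult (edgeR adjusted p = 0.106, DESeq2 adjusted p = 0.0423) and 1.34 ± 0.56 in PDX vs Adult (edgeR adjusted p = 0.187). The Old vs Adult value was 0.58 without O5 and 0.81 without O2 and O5 (edgeR adjusted p = 0.229 for the latter).

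Mt2, its close relative, had 60.7, 108, 155, 178 and 27.6 CPM in Adult mice. Old mice had 134, 65.3, 286, 176 and 999.8 CPM, and PDX mice 304, 709.9, 83.6, 296 and 382 CPM. O5 and P2 were again the highest and O2 and P3 the lowest older mice. The log2 fold change was 1.65 ± 0.71 in Old vs Adult (edgeR adjusted p = 0.145) and 1.74 ± 0.71 in PDX vs Adult (edgeR adjusted p = 0.179). The Old vs Adult value was 0.64 without O5 and 0.92 without O2 and O5. In PDX vs Old, Mt1 gave -0.12 ± 0.55 and Mt2 0.10 ± 0.69, both with intervals that span 0, and without O5 they were 0.76 and 1.10.

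Across the 15 mice Mt1 and Mt2 had r = 0.98 (permutation p = 1e-05, the smallest the resamples can give) and rho = 0.99, and r was 0.98 without O5 and P2. It was 0.97 with the group means subtracted. The share of Mt2 in the Mt1 plus Mt2 counts was 35.5 ± 8.90% in Adult, 38.9 ± 4.15% in Old and 43.5 ± 4.33% in PDX mice (SD, n = 5). None of the 3 differences in this share passed (exact permutation p = 0.103 to 0.492). Hamp and Mt1 had r = 0.046 (rho = -0.10, permutation p = 0.872 and 0.725), and r was 0.26 with the group means subtracted.

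**Figure D4:**
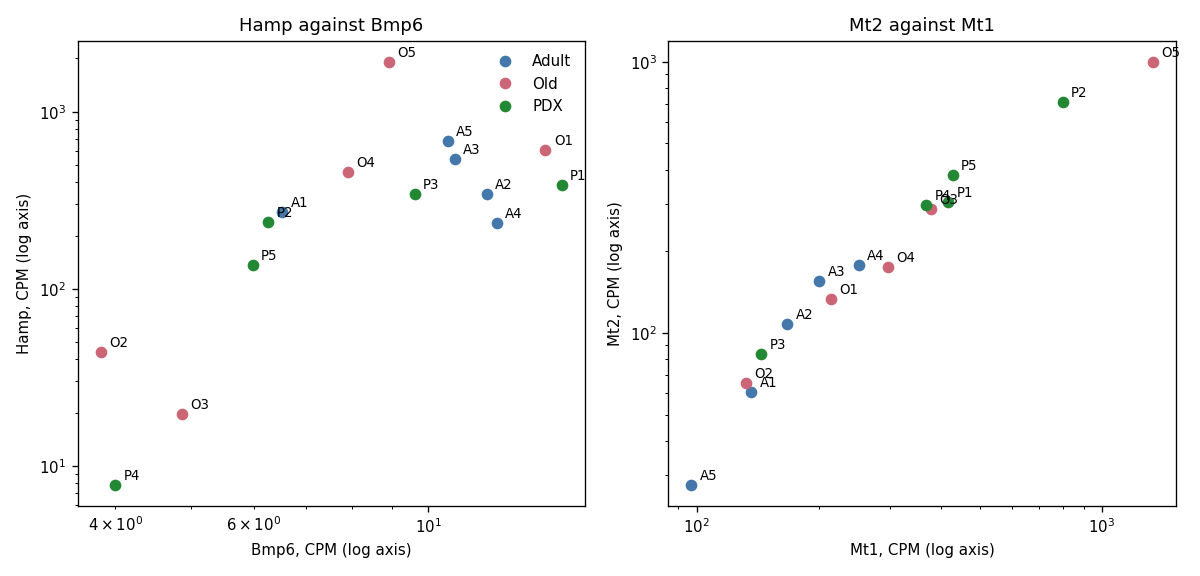
Left, Hamp against Bmp6, and right, Mt2 against Mt1, as CPM on log axes with 1 labelled point per mouse, colored by group. O2, O3 and P4 sit apart at the lower left of the Hamp panel, while the metallothioneins fall along 1 line from A5 (97.0 and 27.6 CPM) to O5 (1332 and 999.8 CPM).

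Other genes of iron handling were read from a list of 28, without the members. In Old vs Adult 4 were called higher and 1 lower, while 6.78% of all genes tested were called. The median log2 fold change of the list was 0.096 against 0.068 over all genes. Lcn2, which binds the iron-carrying siderophores of bacteria, rose from 15.1 to 404 CPM (log2 fold change 4.74 ± 0.71, edgeR adjusted p = 0.00416). Hpx and Hp, the plasma scavengers of heme and hemoglobin, rose by 1.70 ± 0.43 (edgeR adjusted p = 0.0319) and 1.59 ± 0.35 (edgeR adjusted p = 0.0233) on the log2 scale. Cp, the ferroxidase ceruloplasmin, rose by 1.35 ± 0.28 (edgeR adjusted p = 0.0186). Aco1, the aconitase that becomes iron regulatory protein 1, fell by 0.69 ± 0.19 on the log2 scale (edgeR adjusted p = 0.0476). Lcn2, Hp, Hpx and Cp are also acute phase genes of the liver, and the first 3 are counted again in the acute phase list.

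In PDX vs Adult 5 of the 28 were called, all higher, while 2.66% of all genes were called. The 5 were Lcn2, Hpx, Hp, Cp and Steap4, a metalloreductase (1.54 ± 0.31, edgeR adjusted p = 0.0156). With edgeR, PDX vs Old called 0 of the 28, with 3 at an unadjusted p under 0.05, and 0 in each of the other lists, where 2 (BMP-SMAD), 0 (zinc), 0 (acute phase) and 3 (glucocorticoid response) were under it. Ireb2, iron regulatory protein 2, stood at 60.6 CPM in Adult, 46.6 in Old and 40.4 in PDX mice on average (edgeR adjusted p = 0.234 and 0.123 against Adult). Slc39a14, a zinc and iron importer, had 197, 339 and 316 CPM, with O5 at 745 CPM (edgeR adjusted p = 0.199 and 0.331). Slc11a2, an iron importer of endosomes, had 32.8, 42.1 and 39.2 CPM (edgeR adjusted p = 0.200 and 0.440).

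Over all genes 6.78% were called in Old vs Adult and 2.66% in PDX vs Adult. Of 25 tested genes of hepcidin control and BMP-SMAD signaling, 2 were called higher in Old vs Adult, and the same 2 in PDX vs Adult. These were Fgl1, a hepatokine that can block BMP signals (479 CPM in Adult, 1553 in Old and 1849.7 in PDX mice; edgeR adjusted p = 0.00652 and 0.00182), and Socs3, a brake on STAT3 signaling (11.4, 30.2 and 38.8 CPM; edgeR adjusted p = 0.0322 and 0.0162). The median log2 fold change of the list was 0.12 in Old vs Adult, where its share called was near that of all genes. Id1 and Smad7, targets of BMP signals, were not called in Old vs Adult (log2 fold change 1.57 ± 0.53, edgeR adjusted p = 0.0768, and 0.79 ± 0.44, edgeR adjusted p = 0.254). O5, the mouse with most Hamp, had the highest Smad7 (47.8 CPM) and Id1 (36.3 CPM). Of other genes of this list, Atoh8 (58.5 CPM) and Bambi (5.66 CPM) were also highest in O5. Id2, Id3 and Smad6 were instead highest in O1 (181, 153 and 25.4 CPM, against 143, 148 and 12.2 CPM in O5).

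Hfe and Hfe2, the gene of hemojuvelin, both parts of the hepcidin sensor, differed little (-0.12 ± 0.10 and -0.22 ± 0.27 in Old vs Adult, edgeR adjusted p = 0.473 and 0.622). Tmprss6, the protease that cuts hemojuvelin, was lower in every older mouse (193 to 583 CPM) than in any Adult mouse (586 to 704 CPM), without passing the test (edgeR adjusted p = 0.133 in Old vs Adult). The gap was narrow, as O1 had 583 CPM and A4 586 CPM, and O5 (193 CPM) and O2 (288 CPM) were the lowest. Groups apart were seen for 8.13% of all genes in Old vs Adult and 19.9% in PDX vs Adult.

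Of 11 tested zinc handling genes, 2 were called in Old vs Adult and 1 in PDX vs Adult, against 6.78% and 2.66% of all genes. Slc39a13, a zinc transporter, rose in Old vs Adult by 0.57 ± 0.12 (edgeR adjusted p = 0.0233). Slc39a5, a zinc importer, fell by 3.26 ± 0.59 on the log2 scale (edgeR adjusted p = 0.0110), and was the only one of the list called in PDX vs Adult, where it also fell (edgeR adjusted p = 0.00743). Its level was low throughout, at a mean of 5.38 CPM in Adult, 0.562 in Old and 0.505 in PDX mice. Old mice had 2 to 31 counts and PDX mice 8 to 29. Mtf1, the metal sensor that switches on metallothioneins, had 18.4, 17.4 and 16.0 CPM in the 3 groups (edgeR adjusted p = 0.675 and 0.348 against Adult). Slc30a1, a zinc exporter and another MTF1 target, had 32.5, 62.7 and 40.3 CPM, and O5, highest for Mt1 and Mt2, was at 151 CPM (edgeR adjusted p = 0.0957 and 0.660).

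The acute phase list, liver genes that inflammation turns on, had 7 of 19 called higher in Old vs Adult and 9 in PDX vs Adult, with 0 lower in both. Over all genes 6.78% and 2.66% were called in these comparisons. The median log2 fold change of the list was 1.49 and 1.57. Orm2 (3.02 ± 0.80, edgeR adjusted p = 0.0386), Saa3 (2.96 ± 0.46, edgeR adjusted p = 0.00516) and Apcs (1.77 ± 0.30, edgeR adjusted p = 0.00758) had the largest fold changes, after Lcn2, of the genes called in Old vs Adult. Saa1, a serum amyloid, had 42.5 CPM in Adult, 489 in Old and 1939 in PDX mice, and was called only in PDX vs Adult (5.51 ± 1.27, edgeR adjusted p = 0.0314), as was Saa2 (6.65 ± 1.49, edgeR adjusted p = 0.0285). The difference between the 2 older groups was not called for either. P2 had 8325 CPM of Saa1 and 8308 CPM of Saa2. The other PDX mice had 158 to 715 and 100 to 450 CPM, so the PDX means rest largely on P2. P2, second for both metallothioneins, had the highest Saa1 (8325 CPM) and Lcn2 (1201 CPM). O5, first for both, was second for them (1475 and 918 CPM). Of 8 glucocorticoid response genes 0 were called in any comparison, with 1, 3 and 1 at an unadjusted p under 0.05 in Old vs Adult, PDX vs Old and PDX vs Adult. Their sum was highest in O5 (19309 CPM, against 8715 CPM or less in the other mice). Tat (13538 CPM) and Pck1 (4612 CPM) made up most of that O5 sum. O5 was the highest mouse for both, and for Sgk1 (482 CPM), Per1 (276 CPM) and Zbtb16 (108 CPM). It was not the highest for Tsc22d3 (82.5 CPM, with A2 at 231 CPM) or Dusp1 (64.6 CPM, with O2 at 163 CPM). Nor was it for Fkbp5 (141 CPM, with P2 at 153 CPM). The part of inflammation or of stress hormones in the metallothionein levels was not tested.

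The genes whose levels ranked most like each member over the 15 mice are given as a description, since they share libraries and group differences. Hamp was ranked most like Gm9063 (rho = 0.89) and Atoh8, a SMAD target (0.87). Hamp2 was most like Ndufa9 (0.98) and Ndufb6 (0.98), subunits of respiratory complex I, and Bmp6 like Abcg2 (0.87) and Thoc3 (0.86). Tfrc ranked with Ltf (0.90) and Pglyrp1 (0.88), genes of neutrophil granules, and Tfr2 with 4933421A08Rik and Sdsl (0.91 each). Trf ranked with Abhd2 (0.95) and Rpn1 (0.94), and Slc40a1 with Slc25a40 (0.82) and Adgrv1 (0.81). Fth1 ranked with Gm6977 (0.93), a processed pseudogene that shares 58 runs of 50 bases with it, and Exosc5 (0.92). Mt1 and Mt2 ranked with each other (0.99) and with Acpp (0.94 and 0.93).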

How the data were processed

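Polyadenylated RNA of frozen liver was sequenced from both ends with reads of 50 bases. Alignment to mm10 was done by the authors with STAR 2.6.0c, and the deposited counts are raw numbers of uniquely placed proper pairs on the sense strand of each Ensembl gene, mitochondrial genes left out, from featureCounts in Subread 1.6.2. A second deposited table holds log2-scale values, which the authors computed with the variance stabilizing function of DESeq2 1.23.10, and it served as an alternative only. Genes with few counts were removed with filterByExpr (minimum count 10, minimum total 15), leaving 15808. Counts were scaled with TMM and fitted for all 15 mice with edgeR 4.0.16 (quasi-likelihood test, Benjamini-Hochberg over all genes, threshold 0.05) in R 4.3.3. DESeq2 1.42.0 (Wald test) and limma 3.58.1 were alternatives. TPM used the exon length of GENCODE M21. Counts of other genes in the lists were made over the same fit. Ratios were tested with the exact permutation test over samples, and member pairs with 100000 permutations over all 15 mice without regard to group. The text names the members, 13 regulators whatever their values, up to 6 called genes a list with the largest fold change, and the 2 genes ranked most like each member. The members, lists and rules were chosen with earlier results of these data known. Mice are separate animals. Same-numbered mice of different groups are different animals and did not deviate together, so they were not paired. The scripts were tested on simulated data. Promoter sequences came from RefSeq tables of GRCm38.p6 and matched 8 of 10 members, and transcripts from GENCODE M21 (GRCm38, the same build as mm10).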

Additional observations from a re-analysis of the deposited data

Results flagged for a closer look

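In 39 checks of 5 mice each (10 members and 3 ratios in 3 groups), 5 single mice lay farther from the rest of their group than Dixon's 95% critical value allows. Chance alone flags about 1 in 20 such checks if the values are normally distributed. The member checks used CPM without a log, and Mt1 and Mt2 varied together, so the checks are not independent. That rate therefore need not hold here. Hamp2 in O1 was 307 CPM, while the other Old mice had 0.685 to 35.4 CPM. Bmp6 in A1 was 6.52 CPM, below the other Adult mice. Slc40a1 in P5 was 129.9 CPM, below the 178 to 192 CPM of the other PDX mice. Mt1 in O5 was 1332 CPM and Mt2 in the same mouse was 999.8 CPM, each above every other mouse of the 15.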

How the results depend on the processing

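In Old vs Adult 221 of 230 member values kept their direction and side of the threshold, 6 became calls and 3 reversed. In PDX vs Old 210 of 240 did, 0 became calls and 30 reversed, and in PDX vs Adult 204 of 230 did, 18 became calls and 8 reversed. Between PDX and Old, the direction of Tfrc, Tfr2, Mt1, Mt2, Bmp6 and Hamp2 turned in some alternatives. Hamp, Trf, Slc40a1 and Fth1 kept their sign, but their intervals span 0 too. The direction is therefore not settled for any member.

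Counts of called genes moved widely. Over all genes in Old vs Adult they were 1072 in the fit reported, 2641 with DESeq2, 665 without a filter, 651 with limma on the deposited log2 values, 105 with only the 2 groups and 156 to 2178 without 1 mouse. In PDX vs Adult they were 420, 1400 with DESeq2, 4529 with only the 2 groups, 4004 without O2 and O5, and 166 to 1766 without 1 mouse. In PDX vs Old DESeq2 called 1 gene. Members called in Old vs Adult were 0 in the fit reported, 3 with DESeq2, 1 with limma and 1 without O2 and O5, and 0 to 1 without 1 mouse (Hamp2, without O1). In PDX vs Adult they were 0, 2 with DESeq2, 1 with a filter of 1 CPM, 4 with only the 2 groups, 5 without O2 and O5, and 0 to 3 without 1 mouse (1 without O1, 2 without O2, 3 without O5). Genes of the pathway lists called in Old vs Adult were 13, with 28 by DESeq2, 5 with only the 2 groups and 5 to 27 without 1 mouse. In PDX vs Adult they were 14, with 23 by DESeq2, 41 with only the 2 groups, 39 without O2 and O5 and 8 to 30 without 1 mouse. The cause of these shifts was not tested.

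Reversed log2 fold changes were as follows. For Hamp in Old vs Adult they were -0.81 with limma and -0.19 without O2 and O5, with -0.55 to 0.87 without 1 mouse. In PDX vs Old without O2 and O5 they were 0.31 for Tfrc, -0.039 for Tfr2, 0.55 for Mt1 and -0.13 for Bmp6. Tfr2 was also -0.0044 with DESeq2, -0.0078 with RLE size factors and -0.018 with only the 2 groups. With limma Mt1 was 0.16 and Hamp2 was 1.36. Without 1 mouse the ranges in PDX vs Old were -0.28 to 0.093 for Tfrc, -0.15 to 0.14 for Tfr2, -0.32 to 1.10 for Mt2, -0.47 to 0.76 for Mt1, -0.29 to 0.33 for Bmp6 and -1.04 to 1.84 for Hamp2. Slc40a1 in PDX vs Adult ranged from -0.054 to 0.12.

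Of the ratios, the Mt2 share in Old vs Adult was -0.81 points with group medians. The Hamp2 share in PDX vs Old was -1.13 points without O2 and O5 and -0.69 to 21.4 points without 1 mouse. The log2 ratio of Tfrc to Fth1 in PDX vs Old ranged from -0.17 to 0.23. The r of Hamp and Mt1 was -0.43 without O2 and O5. The r of Hamp and Bmp6 without O2, O3 and P4, an alternative chosen after seeing the data, was 0.35.

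With the replicate block, 237 genes were called in Old vs Adult and 6 genes of the pathway lists, 316 genes in PDX vs Adult and 0 in PDX vs Old, and 0 members in each. Under the block Mt1 and Hamp2 in PDX vs Old were 0.092 and 0.50 and Slc40a1 in PDX vs Adult was -0.033. Same-numbered mice correlated by -0.0151 on average (-0.215 to 0.285), so the number is only a name. With the block the smallest exact p of a ratio was 0.0625. With 5 mice per group and the wide spread of Hamp2, its interval between the older groups was wide in both directions. The size of change that could have been detected was not computed.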
